A study of Mus musculus with 6 samples.

Results

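Kidneys of mice that carried the G2 risk variant of human APOL1 were compared with kidneys of mice that carried the G0 reference variant, by bulk RNA sequencing. The comparison rests on 4 of the 6 libraries of the study, 2 labelled G2APOL1 and 2 labelled G0APOL1, chosen by their sample titles, and it was read across all 14386 genes with enough counts to test, of 54146 in the table. The other 2 libraries, labelled WT, carry no APOL1 label and are given as a point of orientation. All mice, WT included, had 1 kidney removed at 6 weeks of age and then ate a diet with 4% salt, so every group is a group of operated, salt-fed animals. The series describes the human APOL1 as inducible and cell-specific, and its design text writes EC before both transgenic genotypes without spelling it out. The promoter or driver, the inducing agent, the insertion site, the strain and the sex are not given in the labels. Nor do they say whether a group's 2 libraries are 2 animals, so errors and p-values here measure the spread between libraries, which may be technical. A difference between the G2APOL1 and G0APOL1 mice in insertion site, induction or strain cannot be told apart from one of variant. The amount of transgene RNA is not analysed here.

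APOL1 is a secreted and intracellular apolipoprotein of humans and some other primates that forms ion channels and kills trypanosomes. The G0 form is the common one, and G2 is a short in-frame deletion near the end of the protein that, like the G1 form, is linked to kidney disease in people who carry 2 risk alleles. Mice have no APOL1 of this kind. In the kidney the gene is known for its expression in podocytes and endothelial cells, while most RNA of a whole kidney comes from tubule cells.

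Depth was close between the groups. Total counts were 11800932 and 9443888 in the G2APOL1 libraries, 10027178 and 8490396 in the G0APOL1 libraries, and 9639008 and 8752035 in the WT libraries. Markers of the tissue were present in all 6 libraries, with the phosphate transporter Slc34a1 between 1575 and 4076, uromodulin (Umod) between 2213 and 2960 and the water channel Aqp2 between 379 and 2045 CPM, the read count relative to library size after scaling between libraries. The Y-linked gene Ddx3y lay between 20.7 and 28.9 CPM in every library. The 2 G2APOL1 libraries were the most alike, with a correlation of log2 CPM across genes of 0.958, against 0.929 between the 2 G0APOL1 libraries. G0APOL1 replicate 1 was closer to the G2APOL1 libraries (0.946 with each) than to its own partner. G0APOL1 replicate 2 stood apart, at -72.06 on the second principal component. It held 3528 CPM of the nuclear RNA Malat1, against 213 and 328 CPM in the G2APOL1 libraries, 258 CPM in the other G0APOL1 library and 311 and 1288 CPM in the WT libraries. The fat cell genes Cfd and Adipoq were high in G2APOL1 replicate 2, at 105 and 15.5 CPM, against 0.343 and 0 CPM in G2APOL1 replicate 1, so they differed within a group. Of 7 fat cell markers tested 0 passed; 1 was higher and 0 lower at an unadjusted p under 0.05, 3 had higher, non-overlapping groups, against 19.7% of all genes, and the median log2 fold change was 1.12, against -0.02 for all genes. The lipid carrier Fabp4 was at 1.12 ± 0.40 (adjusted p = 0.603), the fat cell regulator Pparg at 1.03 ± 0.56 and the lipase Lpl at 0.44 ± 0.22. Summed, the fat cell markers had 330.1 and 525 CPM in G2APOL1, 296 and 206 CPM in G0APOL1, and 398 and 325 CPM in WT, and their part in the results was not tested. Of the genes that passed with all libraries, 22 also passed without G0APOL1 replicate 2, and values without it are given below for part of the others.

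Of the 14386 genes, 69 passed edgeR's quasi-likelihood test at an adjusted p under 0.05, which is 0.48% of those tested. In G2APOL1, 25 of them (0.174%) were higher and 44 (0.306%) were lower than in G0APOL1. At an unadjusted p under 0.05 there were 970 genes (6.74%), 421 higher (2.93%) and 549 lower (3.82%). All 69 had G2APOL1 and G0APOL1 libraries that did not overlap, which is also true of 2837 genes higher in G2APOL1 (19.7%) and 2806 lower (19.5%) whatever their test. The median log2 fold change of all genes was -0.02, and the smallest change among the 69 was 0.98 on the log2 scale. The last gene inside the threshold was Calb1 with an adjusted p of 0.0455, and the first outside was Hba-a1 with 0.0523. By type, 57 were protein-coding genes, 9 were pseudogenes and 3 were other transcripts.

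**Figure D1:**
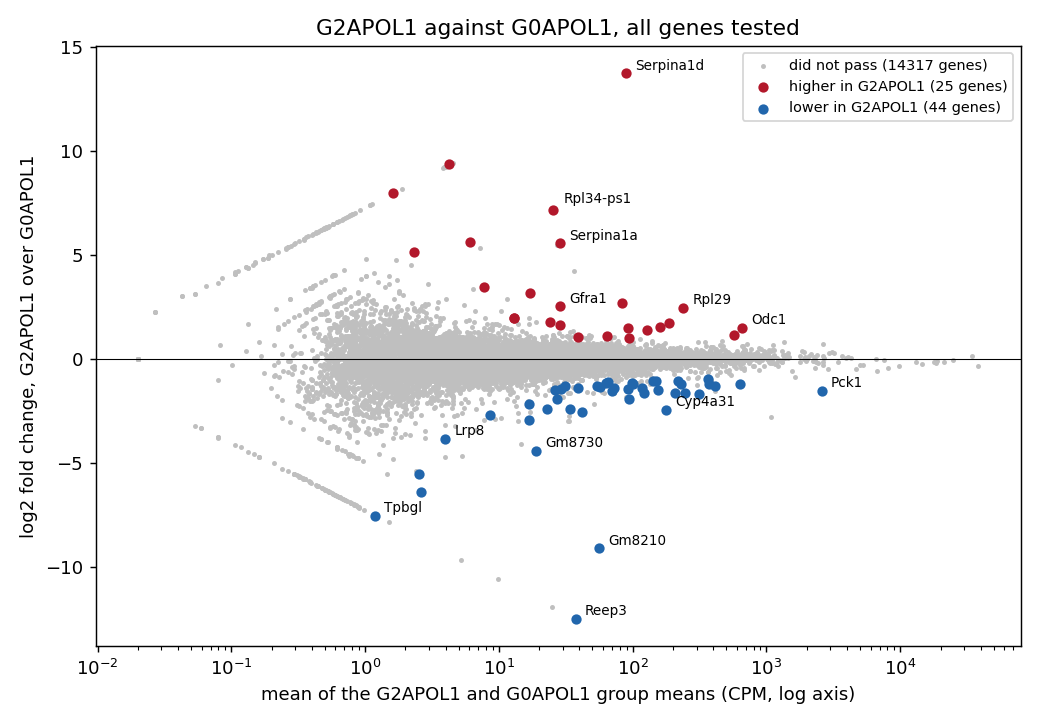
Each point is a gene, with the mean of the G2APOL1 and G0APOL1 group means on the log x axis (CPM) and the log2 fold change of G2APOL1 over G0APOL1 on the y axis. The 25 genes that passed and were higher in G2APOL1 are red, the 44 that passed and were lower are blue, and the other genes are grey; Serpina1d and Reep3 lie farthest from 0, and Pck1 has the highest level among those that passed. For genes with 0 counts in a group, such as Serpina1d and Reep3, the plotted change is a fitted value and not a bound.

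The alpha-1 antitrypsin gene Serpina1d had the smallest p of all genes tested. Alpha-1 antitrypsin is a secreted inhibitor of neutrophil elastase that is made chiefly in the liver, and mice have several near-identical copies of its gene, Serpina1a to Serpina1e, side by side on chromosome 12. The stretches just before the start sites of the 5 genes are shown because they are so alike while the counts are not. They are from RefSeq on GRCm38.p6, minus strand, and the capitals mark GTTAAT, part of the recognition site of the hepatocyte factor HNF1.
Serpina1a: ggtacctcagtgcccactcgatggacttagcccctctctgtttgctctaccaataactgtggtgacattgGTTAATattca
Serpina1b: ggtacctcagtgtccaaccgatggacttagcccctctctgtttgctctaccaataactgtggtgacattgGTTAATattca
Serpina1c: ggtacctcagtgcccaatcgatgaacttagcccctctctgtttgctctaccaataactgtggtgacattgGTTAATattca
Serpina1d: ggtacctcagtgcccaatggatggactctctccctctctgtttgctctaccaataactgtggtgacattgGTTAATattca
Serpina1e: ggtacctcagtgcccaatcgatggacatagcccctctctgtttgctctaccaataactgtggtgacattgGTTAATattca
These 81-base stretches lie at chr12:103863630-103863710 (Serpina1a), chr12:103738205-103738285 (Serpina1b), chr12:103904967-103905047 (Serpina1c), chr12:103773639-103773719 (Serpina1d) and chr12:103956965-103957045 (Serpina1e). Pairs of them were between 91.4% and 97.5% identical, and Serpina1d differed most, at 6 or 7 bases from each of the others. GTTAAT on either strand occurred in 6.43% of 32851 windows of 250 bases before a start site, so its presence is a description of the sequence only.

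Serpina1d had 195 and 161 CPM in G2APOL1, 0 and 0 CPM in G0APOL1, and 0.496 and 1.43 CPM in WT. With 3775 counts in the G2APOL1 libraries and none in the G0APOL1 libraries, it was at least 1067-fold higher in G2APOL1, taking 3 counts in the G0APOL1 pair as the floor (adjusted p = 3.74e-07). Serpina1a had 64.5 and 48.4 CPM in G2APOL1, 1.39 and 0.946 CPM in G0APOL1, and 20.4 and 10.1 CPM in WT, and rose by 5.57 ± 0.44 (log2 fold change ± SE with 2 libraries a side, here and in what follows; adjusted p = 2.05e-05). Both genes were high in both G2APOL1 libraries and at or near 0 in both G0APOL1 libraries. Serpina1c had 8.83 and 9.19 CPM in G2APOL1 and 0 in each G0APOL1 library without passing (adjusted p = 0.218). Serpina1b did not pass either, with 10.5 and 14.8 CPM in G2APOL1, 9.50 and 6.15 CPM in G0APOL1, and 91.7 and 91.1 CPM in WT. So the copy that took most of the counts was Serpina1d in G2APOL1 and Serpina1b in both other groups. Because reads can be split among such alike copies, the sum is the safer quantity. Serpina1a to Serpina1d together had 279 and 233 CPM in G2APOL1, 10.9 and 7.10 CPM in G0APOL1, and 113 and 105 CPM in WT, and the sum rose by 4.82 ± 0.25 (adjusted p = 5.33e-07). The sum was therefore lowest in G0APOL1, intermediate in WT and highest in G2APOL1. Serpina1d and Serpina1a passed in each fit that left out 1 library. The neighbouring Serpina1f, with 228 and 214 CPM in G2APOL1 and 149 and 111 CPM in G0APOL1, did not pass (adjusted p = 0.178).

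Genes of steroid metabolism moved both ways. Of 11 tested, 2 rose and 3 fell, against 0.174% and 0.306% of all genes, and their median log2 fold change was 0.19, against -0.02 for all genes. Among the 11, 5 were higher and 3 lower at an unadjusted p under 0.05, against 2.93% and 3.82% of all genes. Hsd3b2, a hydroxysteroid dehydrogenase, had 233 and 243 CPM in G2APOL1, 92.4 and 72.1 CPM in G0APOL1, and 91.9 and 73.1 CPM in WT, and rose by 1.53 ± 0.20 (adjusted p = 0.0031). G0APOL1 and WT overlapped for it, and both G2APOL1 libraries lay above them. Its relative Hsd3b3, on the same strand of chromosome 3 with 16980 bases between the genes, fell by 1.16 ± 0.22 (adjusted p = 0.0375), with 41.7 and 36.6 CPM in G2APOL1, 82.1 and 92.8 CPM in G0APOL1, and 8.33 and 6.26 CPM in WT. Hsd3b4, farther along the same cluster, fell by 1.66 ± 0.27 (adjusted p = 0.0167), with 121 and 118 CPM in G2APOL1 and 421 and 331 CPM in G0APOL1, and its near-identical neighbour Gm10681 by 1.67 ± 0.30 (adjusted p = 0.0375). The third gene of that near-identical group, Gm4450, did not pass, with 254 and 229 CPM in G2APOL1 and 280.4 and 186 CPM in G0APOL1. Summed, Hsd3b4, Gm10681 and Gm4450 gave 525 and 497 CPM in G2APOL1 and 1242 and 929 CPM in G0APOL1, a log2 fold change of -1.09 ± 0.27 that did not pass (adjusted p = 0.181). Hsd3b2 and Hsd3b3 together had 274 and 279 CPM in G2APOL1 and 175 and 165 CPM in G0APOL1. All 8 genes of the cluster had 800 and 777 CPM in G2APOL1 and 1416 and 1094 CPM in G0APOL1. Neither of these sums was tested.

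Outside that cluster, Hsd17b11 and Akr1c18 passed. Hsd17b11, a dehydrogenase found on lipid droplets, had 795 and 775 CPM in G2APOL1 and 364 and 350.2 CPM in G0APOL1 and rose by 1.14 ± 0.22 (adjusted p = 0.0427). Akr1c18, which inactivates progesterone, had 54.9 and 44.8 CPM in G2APOL1, 172 and 95.4 CPM in G0APOL1, and 293 and 299 CPM in WT, and fell by 1.43 ± 0.25 (adjusted p = 0.0254). For Akr1c18 WT was higher than both transgenic groups, which did not overlap. None of these calls held in all fits that left out 1 transgenic library: the highest adjusted p was 0.0673 for Hsd3b2, without G0APOL1 replicate 2, and between 0.132 and 0.602 for the others.

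Cyp4a31 gave the clearest fall among the cytochromes P450. The Cyp4a enzymes hydroxylate fatty acids at the end of the chain and, in the kidney, make lipids that act on vessels and on sodium transport. Cyp4a31 had 52.6 and 57.0 CPM in G2APOL1, 313 and 290.0 CPM in G0APOL1, and 41.7 and 32.5 CPM in WT, and it fell by 2.46 ± 0.20 (adjusted p = 2.05e-05). Both G0APOL1 libraries stood well above the other 4, and it passed in each fit that left out 1 library. The relatives of Cyp4a31 did not pass: Cyp4a10 was at -0.61 ± 0.25, Cyp4a14 at -1.55 ± 0.38 and Cyp4a12b at -2.14 ± 0.61, while Cyp4a12a was at 0.64 ± 0.26. Over all 11 Cyp4a genes of the table the summed level was 908 and 967 CPM in G2APOL1 and 1087 and 1225 CPM in G0APOL1. Of 22 P450 genes tested, 2 fell and 0 rose, against 0.306% and 0.174% of all genes; 7 were lower and 1 higher at an unadjusted p under 0.05, against 3.82% and 2.93% of all genes, and the median log2 fold change was -0.42. The second gene that fell was Cyp24a1, which breaks down active vitamin D. It had 11.5 and 9.93 CPM in G2APOL1, 42.9 and 70.6 CPM in G0APOL1, and 16.8 and 40.5 CPM in WT, and fell by 2.40 ± 0.40 (adjusted p = 0.0269). The call of Cyp24a1 was lost in 3 of the fits that left out a transgenic library, with adjusted p up to 0.253, among them the fit without G0APOL1 replicate 2 (adjusted p = 0.141).

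Sgk1, Ddit4 and Angptl4, which answer to glucocorticoids, aldosterone or fasting, fell. They were 3 of 18 tested genes of the glucocorticoid and aldosterone list, and 0 rose, against 0.306% lower and 0.174% higher of all genes. At an unadjusted p under 0.05, 8 were lower and 0 higher, against 3.82% and 2.93% of all genes, and 9 had groups that did not overlap and were lower, against 19.5% of all genes. The list's median log2 fold change was -0.94. Sgk1, a kinase that hormones of the adrenal cortex induce and that raises sodium uptake through the epithelial sodium channel, had 36.5 and 40.6 CPM in G2APOL1, 146 and 150.2 CPM in G0APOL1, and 198 and 95.3 CPM in WT. It fell by 1.94 ± 0.29 (adjusted p = 0.0155), and the G2APOL1 libraries were lower than the other 4. Ddit4, an inhibitor of the growth kinase mTORC1, had 13.2 and 9.19 CPM in G2APOL1, 28.9 and 56.9 CPM in G0APOL1, and 54.7 and 39.7 CPM in WT, and fell by 1.93 ± 0.34 (adjusted p = 0.0254). Angptl4, a secreted inhibitor of lipoprotein lipase, had 61.0 and 66.7 CPM in G2APOL1, 146 and 193 CPM in G0APOL1, and 114 and 197 CPM in WT, and fell by 1.41 ± 0.25 (adjusted p = 0.0262). All 3 genes were below both G0APOL1 and both WT libraries.

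Other hormone targets of the list had negative values without passing. Fkbp5 was at -1.16 ± 0.28 (adjusted p = 0.178), Errfi1 at -0.93 ± 0.20 (adjusted p = 0.0777), Tsc22d3 at -0.61 ± 0.20 (adjusted p = 0.442) and Per1 at -0.96 ± 0.40 (adjusted p = 0.701). The receptors did not pass, with the glucocorticoid receptor Nr3c1 at 0.19 ± 0.26 and the mineralocorticoid receptor Nr3c2 at -0.06 ± 0.45, nor did Hsd11b2, the enzyme that shields the mineralocorticoid receptor from glucocorticoids, at 0.19 ± 0.24. Part of the list was high in the G0APOL1 library that stood apart. Zbtb16 had 0.514 and 1.82 CPM in G2APOL1 and 1.81 and 22.8 CPM in G0APOL1, Cdkn1a 4.97 and 1.07 CPM in G2APOL1 and 5.34 and 44.5 CPM in G0APOL1, and Dusp1 20.8 and 24.8 CPM in G2APOL1 and 21.5 and 115 CPM in G0APOL1. Without G0APOL1 replicate 2, Sgk1 was at -1.92 (adjusted p = 0.0961), Ddit4 at -1.36 (adjusted p = 0.258) and Angptl4 at -1.19 (adjusted p = 0.231). Sgk1 also lost its call without G2APOL1 replicate 1 (adjusted p = 0.0698) or G0APOL1 replicate 1 (adjusted p = 0.0644), Ddit4 without G2APOL1 replicate 2 (adjusted p = 0.163), and Angptl4 without either G2APOL1 library (adjusted p = 0.25 and 0.158). Ddit4 lost its call with limma-voom as well. The part that the other differences of G0APOL1 replicate 2 had in these results was not tested.

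Pck1, the enzyme that commits carbon to glucose synthesis and a gene induced by fasting, was the most abundant of the 69. It had 1282 and 1359 CPM in G2APOL1, 3023 and 4669 CPM in G0APOL1, and 1706 and 1683 CPM in WT, and fell by 1.54 ± 0.24 (adjusted p = 0.0138). Here the G0APOL1 libraries were the high ones, and G2APOL1 lay just below WT. Of 21 genes of gluconeogenesis and glycolysis only Pck1 passed, against 0.306% of all genes lower, and the list's median was -0.02. In that list 1 was higher and 2 lower at an unadjusted p under 0.05, against 2.93% and 3.82% of all genes. G6pc, the last step of glucose release, was at -0.63 ± 0.24, Fbp1 at 0.23 ± 0.25 and Pcx at 0.41 ± 0.19. Slc25a25, a nucleotide carrier of the mitochondrial membrane, had 57.6 and 60.4 CPM in G2APOL1, 163 and 207 CPM in G0APOL1, and 92.8 and 59.9 CPM in WT, and fell by 1.65 ± 0.23 (adjusted p = 0.00505). Txnip, a brake on glucose uptake, fell by 1.64 ± 0.27 (adjusted p = 0.0171), with 91.6 and 109 CPM in G2APOL1 and 226 and 399 CPM in G0APOL1. The repressor Bcl6 fell by 2.42 ± 0.41 (adjusted p = 0.0245), with 8.14 and 6.20 CPM in G2APOL1 and 21.3 and 55.8 CPM in G0APOL1. The calls of Bcl6 and Txnip were lost in the fit of the 4 transgenic libraries only, and that of Bcl6 also with limma-voom. Tsc22d1, a leucine zipper protein, fell by 1.30 ± 0.19 (adjusted p = 0.00632), the kinase Pim3 by 1.07 ± 0.21 (adjusted p = 0.0433) and the stress-responsive Fam107a by 1.05 ± 0.21 (adjusted p = 0.0427). The call of Fam107a was lost with a stricter low-count filter. Without G0APOL1 replicate 2 none of these 7 passed. Pck1 was then at -1.19 (adjusted p = 0.155), Slc25a25 at -1.46 (adjusted p = 0.0601), Txnip at -1.17 (adjusted p = 0.133) and Bcl6 at -1.57 (adjusted p = 0.14). Tsc22d1 was then at -1.24 (adjusted p = 0.0746), Pim3 at -0.80 (adjusted p = 0.427) and Fam107a at -1.21 (adjusted p = 0.0964).

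Promoter stretches of 3 of these genes are shown because they hold a motif of a hormone or fasting signal, in capitals: the full glucocorticoid response element, AGAACA and TGTTCT with any 3 bases between them, in Sgk1, the cyclic AMP response element variant TTACGTCA in Pck1, and the full cyclic AMP response element TGACGTCA in Slc25a25. They are from RefSeq on GRCm38.p6.
Sgk1: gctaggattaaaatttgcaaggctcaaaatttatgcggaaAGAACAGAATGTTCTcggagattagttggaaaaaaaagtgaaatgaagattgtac
Pck1: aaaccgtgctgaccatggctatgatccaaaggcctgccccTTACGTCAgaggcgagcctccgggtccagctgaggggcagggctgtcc
Slc25a25: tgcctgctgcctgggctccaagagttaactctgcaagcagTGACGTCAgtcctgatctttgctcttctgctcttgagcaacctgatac
The Sgk1 stretch is chr10:21993661-21993755 on the plus strand, the Pck1 stretch chr2:173152940-173153027 on the plus strand and the Slc25a25 stretch chr2:32424169-32424256 on the minus strand. Their motifs end 175, 86 and 143 bases before a start site. Both strands of the 250 bases before each start were searched, in 32851 windows. The full glucocorticoid element was in 3 windows (0.00913%), TTACGTCA in 0.447% and TGACGTCA in 1.55%. Of the 69 genes, 44 had a window, and each of these 3 motifs was found in 1 of the 44. The E-box CACGTG, also searched, was in 6.02% of windows and in 7 of the 44 genes. The shares count windows and the others count genes, so they are not on the same scale. The match describes these letters and not binding.

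**Figure D2:**
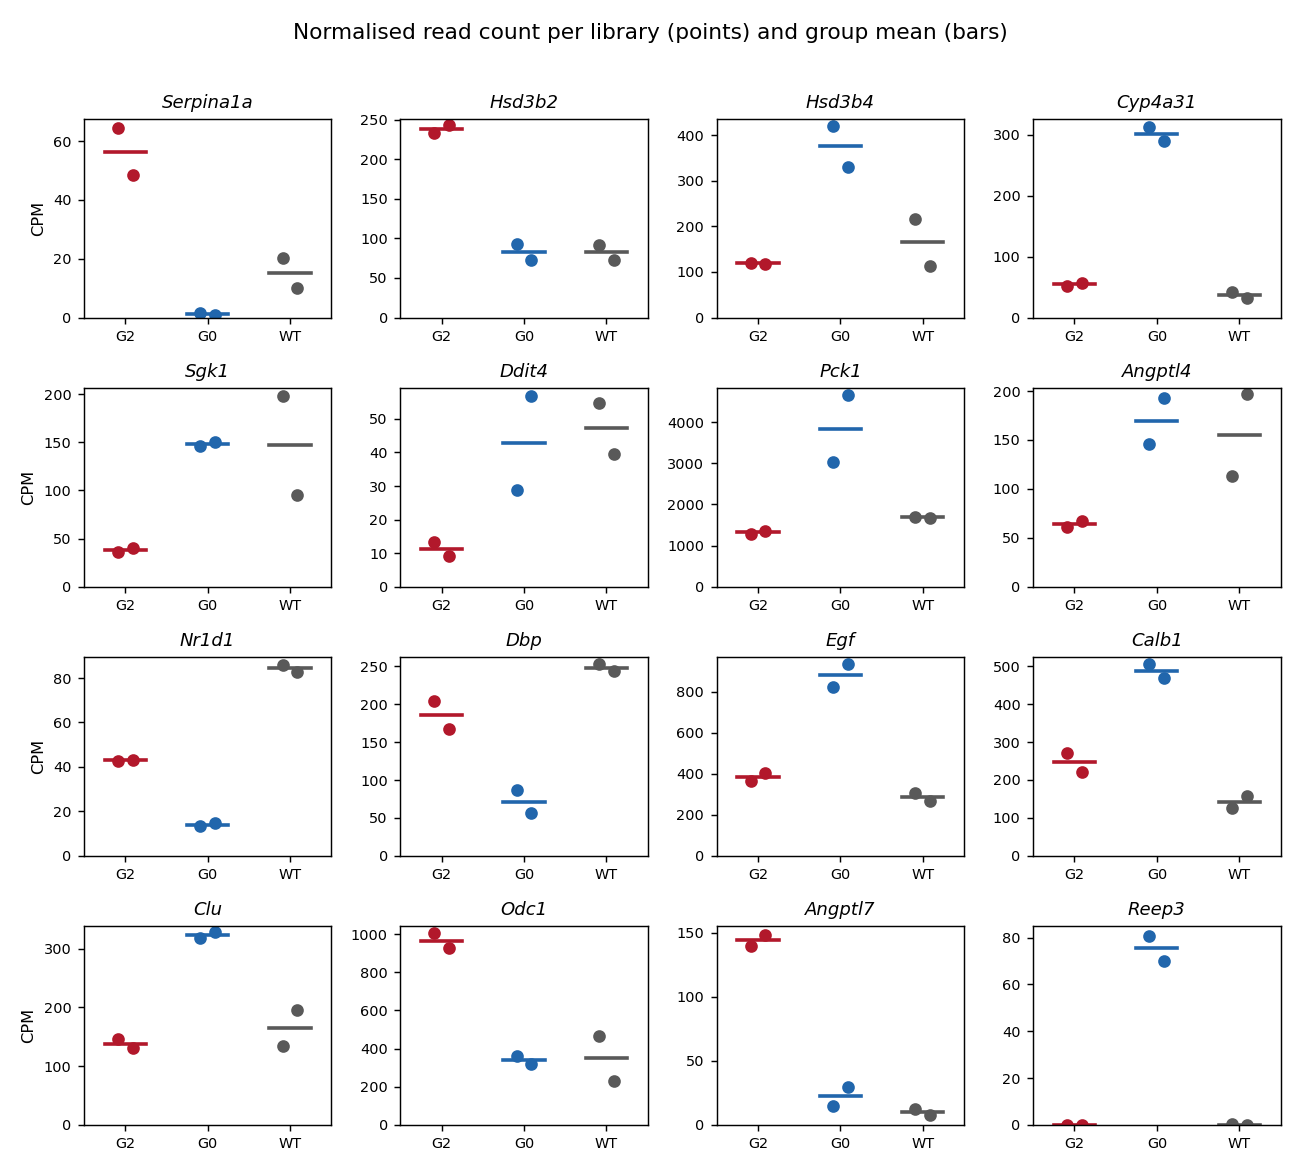
Normalised read count (CPM, linear axes from 0) in each library for 16 genes that passed, with G2APOL1 (G2) left, G0APOL1 (G0) in the middle and WT right; points are libraries and bars are group means. In each panel the G2APOL1 and G0APOL1 points do not overlap, and the WT points lie near G0APOL1 for Hsd3b2, Sgk1, Ddit4, Angptl4 and Odc1 and near G2APOL1 for Cyp4a31, Pck1 and Reep3.

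The clock genes Nr1d1 and Dbp rose. Nr1d1 encodes the repressor REV-ERB alpha, which closes a loop of the circadian clock, and Dbp is a transcription factor whose level the clock sets. Nr1d1 had 42.8 and 43.2 CPM in G2APOL1, 13.3 and 14.5 CPM in G0APOL1, and 85.9 and 82.8 CPM in WT, and rose by 1.62 ± 0.21 (adjusted p = 0.0031). Dbp had 204 and 168 CPM in G2APOL1, 86.9 and 56.3 CPM in G0APOL1, and 253 and 244 CPM in WT, and rose by 1.38 ± 0.22 (adjusted p = 0.0138). Both genes had the same order of groups, with G0APOL1 lowest and WT highest, and no overlap between any groups. Nr1d1 passed in each fit that left out 1 library, while Dbp lost its call without G2APOL1 replicate 1 (adjusted p = 0.112) or G0APOL1 replicate 2 (1.10, adjusted p = 0.16).

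The rest of the clock did not pass. Of 15 core clock genes only Nr1d1 rose and 0 fell, against 0.174% and 0.306% of all genes, and the median was -0.39. Among them 2 were higher and 4 lower at an unadjusted p under 0.05, against 2.93% and 3.82% of all genes. Of 12 output factors only Dbp rose, 0 fell, and the median was -0.24. By the same unadjusted threshold 2 output factors were higher and 3 lower. Nr1d2, the close relative of Nr1d1, was at 0.52 ± 0.21, Nfil3 at 1.01 ± 0.44, Tef at 0.10 ± 0.20 and Hlf at -0.25 ± 0.18. Arntl, the activator whose own gene REV-ERB represses, was near the limit of detection, with 1.71 and 1.71 CPM in G2APOL1 and 0.747 and 2.37 CPM in G0APOL1. Cry1 was at -1.15 ± 0.52 and Per2 at -0.73 ± 0.48, and Per1 and Per2 were highest in G0APOL1 replicate 2 among the transgenic libraries, at 63.9 and 55.1 CPM. The hour at which kidneys were taken is not given in the labels, so a difference in hour between the groups cannot be told apart from one of genotype.

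Egf and Calb1, genes of the later tubule segments, fell. In a whole kidney, fewer cells of a type and less RNA per cell cannot be told apart. Egf, the epidermal growth factor made by the thick ascending limb and distal convoluted tubule, had 364 and 404 CPM in G2APOL1, 824 and 938 CPM in G0APOL1, and 307 and 270 CPM in WT, and fell by 1.20 ± 0.19 (adjusted p = 0.0142). Calb1, the calcium buffer calbindin of the distal tubule, had 272 and 222 CPM in G2APOL1, 506 and 470.2 CPM in G0APOL1, and 127 and 157 CPM in WT, and fell by 0.98 ± 0.20 (adjusted p = 0.0455). In both genes G0APOL1 was the high group and WT the low one. Of 8 distal convoluted tubule markers only Calb1 passed, against 0.306% of all genes lower. Among them 0 were higher and 2 lower at an unadjusted p under 0.05, against 2.93% and 3.82% of all genes. Lower, non-overlapping groups were found in 6 of the 8, against 19.5% of all genes, and the median was -0.54. Slc12a3, the thiazide-sensitive sodium chloride transporter of that segment, had 176 and 176 CPM in G2APOL1 and 224 and 628 CPM in G0APOL1 (-1.27 ± 0.59, adjusted p = 0.805), and Wnk1, a kinase that controls it, was at -0.71 ± 0.25. Of 10 thick limb markers only Egf passed, against 0.306% of all genes lower. In that list 0 were higher and 1 lower at an unadjusted p under 0.05, against 2.93% and 3.82% of all genes. Umod was at -0.27 ± 0.21, Slc12a1 at -0.14 ± 0.24 and the median at 0.01.

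Aqp4, a water channel of the basolateral side of principal cells, had 94.5 and 81.9 CPM in G2APOL1, 39.8 and 41.4 CPM in G0APOL1, and 171 and 131 CPM in WT, and rose by 1.12 ± 0.20 (adjusted p = 0.0251). Of 10 principal cell markers only Aqp4 passed, against 0.174% of all genes higher. In that list 1 was higher and 1 lower at an unadjusted p under 0.05, against 2.93% and 3.82% of all genes. Aqp2 was at 0.14 ± 0.27 and the sodium channel subunit Scnn1a at -0.79 ± 0.28. None of 20 proximal tubule markers passed, with 1 lower and 0 higher at an unadjusted p under 0.05, against 3.82% and 2.93% of all genes, a range from -0.54 to 0.34 and a median of 0.02. Single enzymes and carriers did pass. Mme, the brush border peptidase neprilysin, fell by 1.23 ± 0.22 (adjusted p = 0.0265), with 58.0 and 62.2 CPM in G2APOL1, 150.0 and 131 CPM in G0APOL1, and 58.7 and 92.1 CPM in WT. Acy1, which frees amino acids from their acetyl forms, fell by 1.19 ± 0.21 (adjusted p = 0.0262), with 228 and 227 CPM in G2APOL1 and 534 and 502 CPM in G0APOL1. Gldc, of glycine breakdown, fell by 1.41 ± 0.28 (adjusted p = 0.0427), the sulfotransferase Sult1c2 by 1.14 ± 0.18 (adjusted p = 0.0138), the potassium channel Kcnk5 by 1.47 ± 0.25 (adjusted p = 0.0222) and the lysophospholipid carrier Mfsd2a by 1.35 ± 0.26 (adjusted p = 0.0383). None of the segment genes given here as changed kept its call in every fit that left out 1 transgenic library, and without G0APOL1 replicate 2 Egf was at -1.10 (adjusted p = 0.139), Calb1 at -1.03 (adjusted p = 0.199) and Aqp4 at 1.15 (adjusted p = 0.171). In that fit Mme was at -1.32 (adjusted p = 0.105), Acy1 at -1.23 (adjusted p = 0.14), Gldc at -1.41 (adjusted p = 0.247), Sult1c2 at -1.17 (adjusted p = 0.0754), Kcnk5 at -1.19 (adjusted p = 0.209) and Mfsd2a at -0.91 (adjusted p = 0.408). The call of Calb1 was also lost with size factors (adjusted p = 0.0523), with a stricter low-count filter (adjusted p = 0.055) and without mitochondrial genes (adjusted p = 0.0532). That of Gldc was lost with upper-quartile scaling and without mitochondrial genes, and that of Kcnk5 when replicate number entered the fit of 6 libraries. Calb1, Aqp4, Mme, Acy1, Gldc and Sult1c2 lost their calls in each of the 4 fits without a transgenic library.

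Further genes of other functions rose. Angptl7, a secreted relative of the angiopoietins, had 139.8 and 148 CPM in G2APOL1, 15.1 and 29.9 CPM in G0APOL1, and 12.4 and 7.47 CPM in WT, and rose by 2.68 ± 0.32 (adjusted p = 0.0034). Gfra1, a receptor of the growth factor GDNF, had 52.6 and 45.8 CPM in G2APOL1, 10.0 and 6.86 CPM in G0APOL1, and 27.9 and 15.7 CPM in WT, and rose by 2.54 ± 0.33 (adjusted p = 0.0034). Ccdc6, a coiled-coil protein, had 281 and 289 CPM in G2APOL1, 84.8 and 87.4 CPM in G0APOL1, and 144 and 115 CPM in WT, and rose by 1.73 ± 0.19 (adjusted p = 0.000577). In all 3 genes both G2APOL1 libraries exceeded the other 4. Odc1, the first enzyme of polyamine synthesis and a gene induced by androgens in the mouse kidney, had 1004 and 927 CPM in G2APOL1, 363 and 322 CPM in G0APOL1, and 468 and 232 CPM in WT, and rose by 1.50 ± 0.28 (adjusted p = 0.0375). Summed with 2 near-identical pseudogenes it did not pass (1.48 ± 0.29, adjusted p = 0.076). The glutathione transferase Gstp3 rose by 1.95 ± 0.37 (adjusted p = 0.0364), the lectin-like Clec2h by 1.80 ± 0.30 (adjusted p = 0.0167), the membrane protein Nipal2 by 1.98 ± 0.34 (adjusted p = 0.0195), Nccrp1 by 1.06 ± 0.19 (adjusted p = 0.0262) and the splicing factor Sfpq by 1.01 ± 0.20 (adjusted p = 0.0427). Angptl7 and Ccdc6 passed whichever 1 library was omitted, Gfra1 lost its call without G0APOL1 replicate 2 (adjusted p = 0.0579), and Odc1 had an adjusted p between 0.0934 and 0.358 in the 4 fits without a transgenic library. Clec2h, Nipal2, Nccrp1 and Sfpq also lost their calls in each of those 4 fits, with adjusted p between 0.0513 and 0.45. Gstp3 passed without G2APOL1 replicate 1 (adjusted p = 0.0352) and lost its call in the other 3 (adjusted p between 0.0832 and 0.259) and with limma-voom (adjusted p = 0.0595).

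Among other genes that fell, Tmem267, a membrane protein, had 13.2 and 11.2 CPM in G2APOL1, 77.6 and 66.3 CPM in G0APOL1, and 26.5 and 17.5 CPM in WT, and fell by 2.56 ± 0.27 (adjusted p = 0.000511), a call that held whichever 1 library was omitted. Clu, the chaperone clusterin that rises in injured tubules, had 146 and 131 CPM in G2APOL1, 319 and 329 CPM in G0APOL1, and 135 and 195 CPM in WT, and fell by 1.23 ± 0.21 (adjusted p = 0.0171). Ceacam2, a cell adhesion molecule, fell by 1.52 ± 0.23 (adjusted p = 0.00899), the reelin receptor Lrp8 by 3.85 ± 0.73 (adjusted p = 0.0375), the lipase family member Lipo3 by 2.17 ± 0.36 (adjusted p = 0.0156) and the DNA damage response protein Uimc1 by 1.32 ± 0.23 (adjusted p = 0.0251). The aldo-keto reductase Akr1e1 fell by 1.09 ± 0.20 (adjusted p = 0.036), Prob1 by 1.29 ± 0.20 (adjusted p = 0.0138) and Hddc3 by 1.49 ± 0.29 (adjusted p = 0.0405). Exons of Hddc3 overlap a gene on the opposite strand over 76.3% of their length, against 19.4% in Txnip, 18.0% in Dbp and 8.5% in Nr1d1, and the sources used here do not say whether counting used strand. Apart from Tmem267, these calls were lost in fits without a transgenic library. Clu, Lrp8, Lipo3, Uimc1, Akr1e1 and Hddc3 lost theirs in each of those 4 fits, Prob1 in 3 and Ceacam2 in 2. Without G0APOL1 replicate 2 Clu was at -1.21. Lrp8 lost its call with limma-voom as well.

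Lists of tubular injury, scarring and immune genes held 1 call. Of 18 tubular injury genes only Clu passed, against 0.306% of all genes lower. Among them 0 were higher and 2 lower at an unadjusted p under 0.05, against 2.93% and 3.82% of all genes. Havcr1 (KIM-1) was at -0.87 ± 1.16, Lcn2 (NGAL) at 0.39 ± 0.63 and Vcam1 at -0.74 ± 0.52. Of 28 matrix and fibrosis genes, 26 of the interferon response, 15 of macrophages, 12 of the NF-kB and cytokine list, 11 of the inflammasome, STING and lytic death list, and 14 of podocytes, edgeR called 0 in either direction. At an unadjusted p under 0.05 these lists held 1 higher and 0 lower, 0 and 0, 0 and 1, 0 and 1, 1 and 0, and 1 and 0, in that order, against 2.93% higher and 3.82% lower of all genes. Their medians were -0.06, -0.07, 0.10, -0.17, -0.25 and 0.19. Tmem173, which encodes STING, had 1.71 and 1.39 CPM in G2APOL1 and 2.24 and 1.89 CPM in G0APOL1, and Nlrp3 and Xist had too few counts to test.

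Of 17 endothelial markers 0 passed, 2 were higher and 0 lower at an unadjusted p under 0.05, against 2.93% and 3.82% of all genes, and 7 had higher, non-overlapping groups, against 19.7% of all genes; the median was 0.17. The 2 were the junction gene Cldn5, with 13.8 and 11.4 CPM in G2APOL1 and 3.63 and 8.16 CPM in G0APOL1 (1.10 ± 0.44, adjusted p = 0.632), and Plvap, with a mean of 120.4 ± 13.2 CPM in G2APOL1, 91.2 ± 12.4 CPM in G0APOL1 and 268 ± 1.47 CPM in WT (SD, 2 libraries each; 0.40 ± 0.18, adjusted p = 0.736). Both transgenic groups were below WT for Plvap. Nos3, which makes nitric oxide in endothelium, was at 0.53 ± 0.45. The vasoconstrictor Edn1 was near the floor, with 0.686 and 3.10 CPM in G2APOL1, 0.64 and 0 CPM in G0APOL1, and 4.36 and 4.83 CPM in WT. Of 13 genes of the renin-angiotensin-aldosterone list 2 fell, Sgk1 and Mme, against 0.306% of all genes; renin (Ren1) had 39.7 and 27.2 CPM in G2APOL1, 56.7 and 43.5 CPM in G0APOL1, and 51.3 and 160.1 CPM in WT (-0.58 ± 0.55), and Agt was at -0.15 ± 0.22. Of 24 sodium transport genes 0 passed, with 2 lower at an unadjusted p under 0.05, against 3.82% of all genes, and a median of -0.07. Of 14 heat shock genes 0 passed, with 5 higher and 1 lower at an unadjusted p under 0.05, against 2.93% and 3.82% of all genes, among them Hspa1a at 1.24 ± 0.29 (adjusted p = 0.124) and Dnajb1 at 1.03 ± 0.26 (adjusted p = 0.175). The heat shock median was 0.01, and the 1 lower gene was Hsp90aa1, at -0.69 ± 0.22 (adjusted p = 0.384). Of 57 lists examined, 16 held a gene that passed and 41 held none. No gene passed with a change under 0.98 on the log2 scale, so a list without a call is not shown to be alike in both groups.

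**Figure D3:**
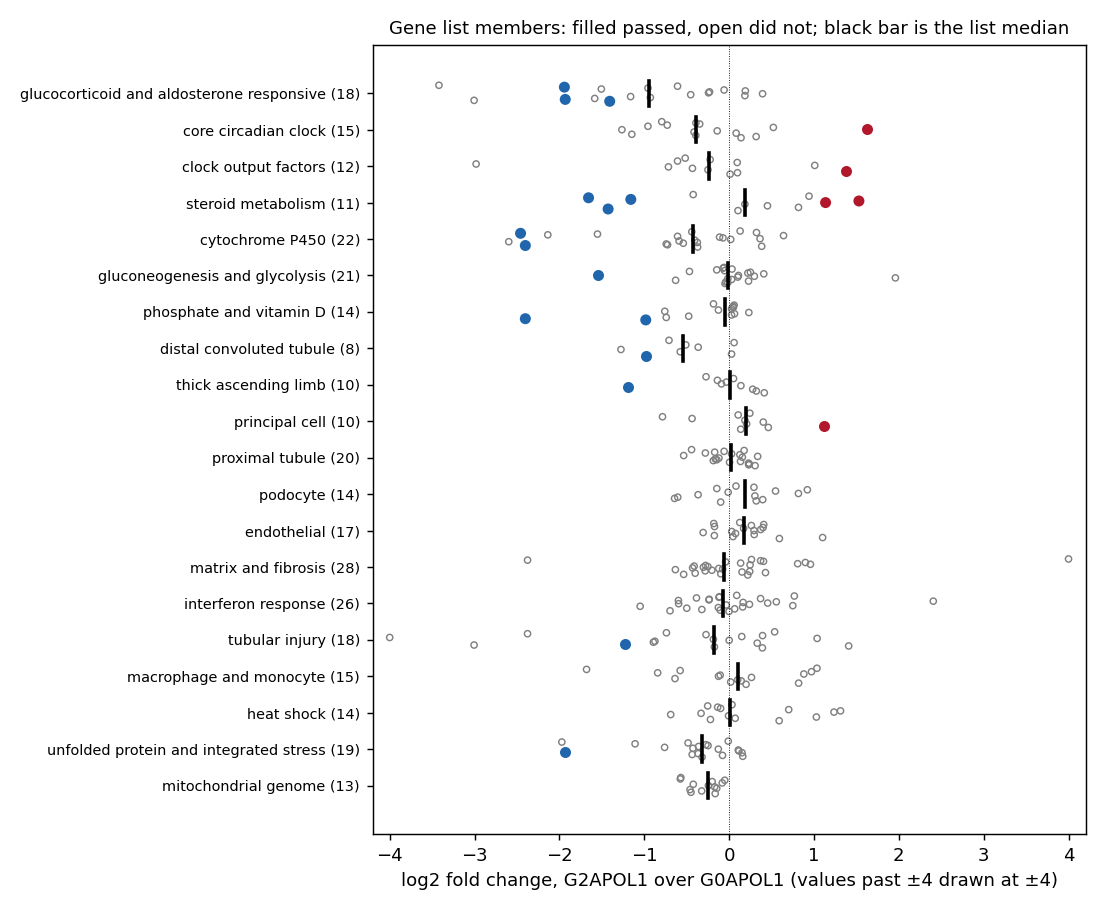
Log2 fold change of G2APOL1 over G0APOL1 (x axis) of the members of 20 of the 57 gene lists, with the number tested in brackets; filled points passed (red higher, blue lower in G2APOL1), open points did not, and black bars are medians. The glucocorticoid and aldosterone list has its median at -0.94, while those of the proximal tubule, podocyte, matrix and interferon lists lie between -0.07 and 0.19.

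Several genes were all but absent from a group. Reep3, a protein that shapes the endoplasmic reticulum, had 0 and 0 CPM in G2APOL1, 80.9 and 69.9 CPM in G0APOL1, and 0.297 and 0 CPM in WT. With 1349 counts in G0APOL1 and none in G2APOL1 it was at least 530.5-fold lower in G2APOL1 (adjusted p = 3.12e-06), and it passed in each fit that left out 1 library. Thus G0APOL1 alone held Reep3 at more than trace level. The gene lies at chr10:67009189-67096945 (GRCm38, minus strand), and 11.3% of its exon length overlaps a gene on the opposite strand. Tpbgl, a leucine-rich repeat protein whose exons overlap an opposite-strand gene over 38.6% of their length, went the same way at a low level, with 0 and 0 CPM in G2APOL1, 2.88 and 1.89 CPM in G0APOL1, and 11.1 and 8.68 CPM in WT, at least 16.9-fold lower in G2APOL1 (adjusted p = 0.0206). Its call was lost with limma-voom (adjusted p = 0.602), in the fit of the 4 transgenic libraries only (adjusted p = 0.138), and without G2APOL1 replicate 1 (adjusted p = 0.112), G2APOL1 replicate 2 (adjusted p = 0.0922) or G0APOL1 replicate 1 (adjusted p = 0.052). The histone pseudogene Hist1h2al had 10.5 and 6.52 CPM in G2APOL1, 0 and 0 CPM in G0APOL1, and 9.02 and 3.52 CPM in WT, at least 52.0-fold higher in G2APOL1 (adjusted p = 0.00532), a call that was lost with limma-voom (adjusted p = 0.361). It has near-identical copies, and its sum with Hist2h2aa1, Hist2h2aa2 and Gm20634 was at -0.23 ± 0.24 (adjusted p = 0.965).

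Some called genes share near-identical sequence with another gene. Of the 69, 20 match a gene detected in these libraries at 95% or more identity across 50% or more of the shorter transcript. Such a match is called a copy here, and reads can be assigned to either gene. Hyal1 with Naa80 and Gm28230 with Hoxd3 may instead be genes with shared exons. Same-strand genes overlap 51.9% of the exon length of Hyal1 and 95.8% of that of Gm28230. Rpl29, of the large ribosomal subunit, had 422 and 388 CPM in G2APOL1, 73.5 and 73.3 CPM in G0APOL1, and 68.3 and 52.1 CPM in WT, and rose by 2.46 ± 0.20 (adjusted p = 2.05e-05). Its pseudogene Gm8210 on chromosome 1 had 0.343 and 0 CPM in G2APOL1, 105 and 119 CPM in G0APOL1, and 156 and 105 CPM in WT, and fell by 9.11 ± 0.47 (adjusted p = 5.83e-07). The 2 moved in opposite directions, and together with 2 further pseudogenes they gave 422 and 388 CPM in G2APOL1, 179.7 and 193 CPM in G0APOL1, and 225 and 158 CPM in WT, a rise of 1.12 ± 0.20 (adjusted p = 0.0353). Eif3j2, a copy of the translation factor gene Eif3j1, fell by 2.93 ± 0.35 (adjusted p = 0.0016), while the sum of both was at 0.06 ± 0.21. Rpl34 fell by 1.05 ± 0.20 (adjusted p = 0.0361) and its pseudogene Rpl34-ps1 rose by 7.17 ± 0.54 (adjusted p = 1.45e-05), while their sum was at -0.45 ± 0.20. Gm8730, a copy of the ribosomal gene Rplp0, fell by 4.43 ± 0.29 (adjusted p = 3.12e-06), and the sum of its family was at 0.06 ± 0.21. Gm12191, a copy of Rpl30, rose by 5.64 ± 0.66 (adjusted p = 0.00127), and its family's sum was at -0.05 ± 0.18.

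Summing was chosen after the values were seen. With 15 families of near-identical genes summed, 14 that hold the 20 genes and 1 of Cyp4a12a with Cyp4a12b, 43 features passed, 15 higher and 28 lower. These were 41 of the 49 called genes without a copy and 2 of the 15 families, those of Serpina1 and Rpl29. Capza1 of the actin capping protein, which had fallen by 1.46 ± 0.26 (adjusted p = 0.0251), was at -0.57 ± 0.22 with its copy. Hyal1, a hyaluronidase that had fallen by 2.72 ± 0.50 (adjusted p = 0.0291) and shares 51.9% of its exon length with genes on the same strand, was at -0.71 ± 0.21 with Naa80. Alone, Hyal1 lost its call with limma-voom.

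**Figure D4:**
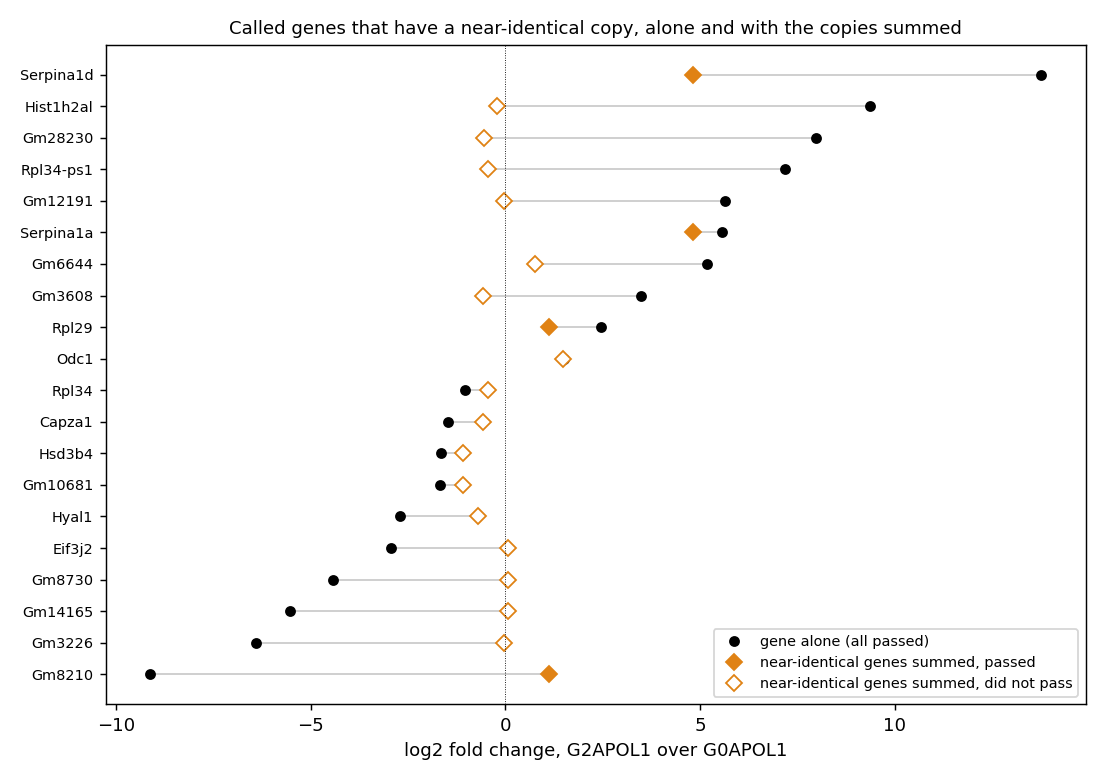
Log2 fold change of G2APOL1 over G0APOL1 (x axis) for the 20 genes that passed and have a near-identical copy, alone (black) and with the copies summed (diamonds, filled where the sum passed). The sums of the Serpina1 family at 4.82 and the Rpl29 family at 1.12 passed, and the other sums did not.

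Called genes also lay side by side in 6 pairs with at most 100000 bases between them. Besides Serpina1d with Serpina1a and the Hsd3b pairs, these were Rpl29 with Acy1, which lie on opposite strands of chromosome 9 with 1413 bases between them and moved in opposite directions, Acy1 with the antisense transcript Gm28959, and Gm38056 with the pseudogene Gm6644 that overlaps it. Chromosome 3, named because its share was the highest, held 9 of the 69 genes, or 1.22% of its 738 genes tested, against 0.48% of all. Among the 9 were Hsd3b2, Hsd3b3, Hsd3b4 and Gm10681 of a single cluster, and Rpl34 and Capza1, whose sums with their copies did not pass.

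The WT libraries did not sit on a fixed side of the variants. Of the 25 genes higher in G2APOL1, the WT mean lay between the 2 transgenic means in 12, below both in 4 and above both in 9. Of the 44 lower genes it lay between in 27, below both in 7 and above both in 10. Sgk1 was at -1.93 in G2APOL1 against WT (adjusted p = 0.00298) and at 0.01 in G0APOL1 against WT (adjusted p = 0.99). Cyp4a31 was at 0.56 in G2APOL1 against WT (adjusted p = 0.0923) and at 3.02 in G0APOL1 against WT (adjusted p = 6.86e-06). Egf was at 0.41 in G2APOL1 against WT (adjusted p = 0.218) and at 1.61 in G0APOL1 against WT (adjusted p = 0.000375). Nr1d1 was lower in both, at -0.97 in G2APOL1 against WT (adjusted p = 0.0101) and -2.60 in G0APOL1 against WT (adjusted p = 2.87e-05). These values share the WT libraries and are given side by side only.

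How far single libraries carried the calls was checked by leaving out each in turn. Without G2APOL1 replicate 1, 35 genes passed, 27 of them among the 69; without G2APOL1 replicate 2, 27 genes, 25 of them shared; without G0APOL1 replicate 1, 76 genes, 37 shared; and without G0APOL1 replicate 2, 30 genes, 22 shared. In these fits the lone library of a group was assumed to vary like the other groups. Without WT replicate 1 or 2, 150 and 141 genes passed, with 66 and 67 of the 69 among them. In all 6 such fits 16 genes passed: Serpina1d, Serpina1a, Cyp4a31, Nr1d1, Reep3, Rpl29, Angptl7, Ccdc6, Tmem267, Eif3j2, Rpl34-ps1, Hist1h2al, Gm8730, Gm8210, Gm12191 and Gm38056. Of these, Eif3j2, Rpl34-ps1, Hist1h2al, Gm8730 and Gm12191 belong to near-identical families whose sums did not pass. Gm8210 fell alone while its family's sum rose, and the sums that hold Serpina1d, Serpina1a and Rpl29 passed as rises. Akr1c18 and Bcl6 lost their calls without either WT library and Txnip without WT replicate 1. All 69 kept their direction in every alternative fit of single genes. The share of calls that were higher in G2APOL1 was 36.2% with all libraries and 60.0%, 59.3% and 53.3% without G2APOL1 replicate 1, G2APOL1 replicate 2 or G0APOL1 replicate 2, where lower genes no longer outnumbered higher ones. It was 39.5% without G0APOL1 replicate 1 and 42.7% and 43.3% without WT replicate 1 or 2, where lower genes still outnumbered higher ones.

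**Figure D5:**
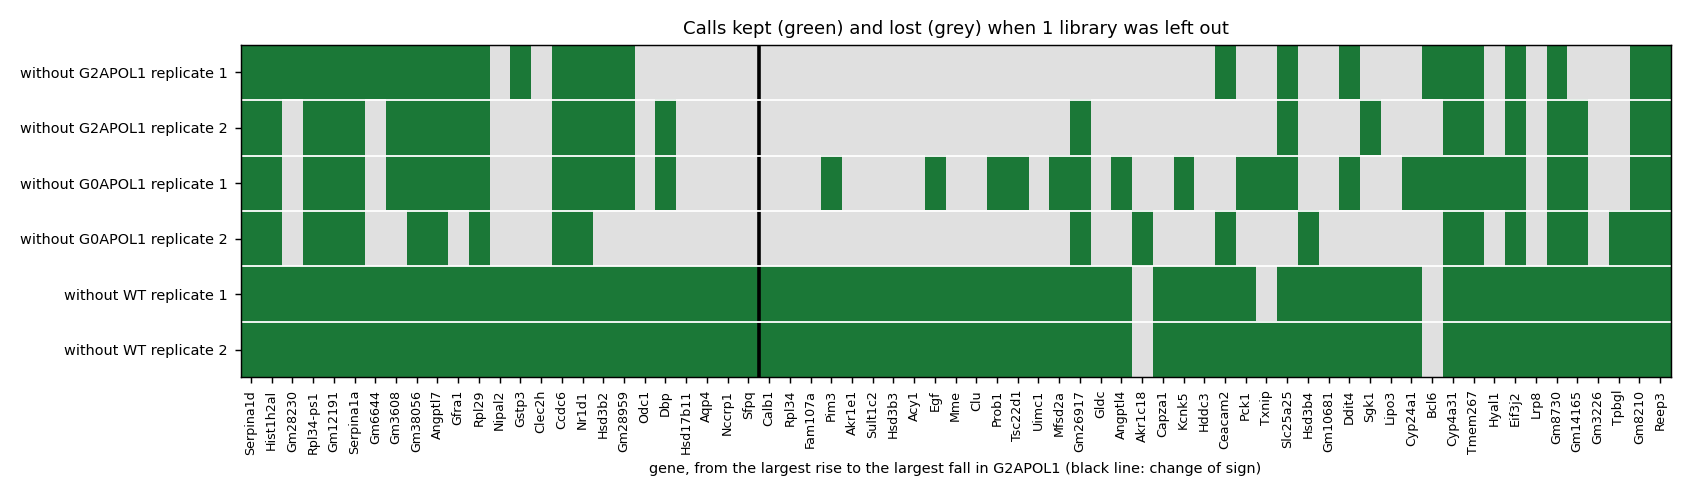
Each column is a gene that passed with all libraries, from the largest rise (left) to the largest fall (right) in G2APOL1, and each row is a fit without 1 library; green marks an adjusted p under 0.05 and grey a lost call. Columns that are green throughout are the 16 genes that passed in all 6 fits, and most losses fall in the 4 rows without a transgenic library.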

How the data were processed

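The authors deposited expected counts per gene (estimated reads, 1 column per library, not scaled between libraries), made from mouse kidney RNA. Per the labels' protocols, RNA came from 10 mg of frozen tissue with an integrity number of at least 6, in NEBNext Ultra libraries of paired 150 bp reads, all in batch 1. The submitters' processing notes name mm10 and Cell Ranger ARC 2.0.2 with no role; for aligner, counter and strand setting: not given in the sources used here. Of 54146 identifiers, 54079 matched GENCODE M21 without version.

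Expected counts were rounded, filtered with filterByExpr (14386 genes) and scaled with TMM. All 6 libraries entered 1 fit in edgeR 4.0.16 (R 4.3.3; 3 residual degrees of freedom, common biological coefficient of variation 0.315), tested two-sided with the quasi-likelihood F test and Benjamini-Hochberg adjustment at 0.05; the SE is the log2 fold change divided by the square root of F. CPM and bounds (3 counts over a group) cover counting error only. Near-identical transcripts were found with minimap2 2.31. The procedure was run on simulated counts with known changes and, for each gene, the same spread in all libraries. Those counts held no library that stood apart and no reads split among copies, so they do not speak to either. Alternatives used DESeq2 1.42.0, limma 3.58.1, other scalings and filters, a replicate block, and left-out libraries.

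The 57 gene lists (798 genes, 791 matched), the members and the rules were chosen with earlier results of these data known. Named genes are those with the largest changes (at most 12 each way, group mean of at least 1 CPM, no unnamed models), the 6 with the smallest p and the 6 most abundant, up to 4 called members per list, relatives of these, and a fixed set (Gapdh, Ddx3y, Xist, Edn1, Ren1, Nos3, Lcn2, Havcr1, Nlrp3, Vcam1, Tmem173); other genes that did not pass, and the called genes outside the rule, were named after their values were seen.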

Additional observations from a re-analysis of the deposited data

How the results depend on the processing

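The scaling moved little: 68 genes passed with size factors and 70 with upper-quartile scaling, and 67 each with a stricter low-count filter and without mitochondrial genes. limma-voom called 73, of which 53 were among the 69. More genes passed without a low-count filter (245; 101 higher, 144 lower), with DESeq2 (151; 60 higher, 91 lower) and in a fit of the 4 transgenic libraries only (119; 47 higher, 72 lower). Same-numbered libraries of G2APOL1 and G0APOL1 did not deviate together (r = 0.043 across genes). With 2 libraries a side this cannot show whether the numbers pair libraries, and the sample titles give only the number. A replicate block raised the count to 120 (47 higher, 73 lower) with 6 libraries and to 485 (223 higher, 262 lower) with the 4 transgenic ones. Leaving out 1 library gave between 27 and 150 calls, 16 to 64 higher and 11 to 86 lower. Near-identical genes summed gave 43 (15 higher, 28 lower), an alternative chosen after seeing the data. The cause of these shifts was not tested. Of the 69, 12 passed in every alternative fit of single genes. Over named results and counts of calls, 1067 were the same, 209 weaker, 21 stronger and 0 turned round. A named result was the same if it kept its side of the threshold, and a count if it lay near the main count. From the summing of near-identical genes that tally holds only the counts of calls, and it leaves out the sums of single families. Among these, the sums of Gm8210 (-9.11 alone, 1.12 summed), Rpl34-ps1 (7.17 and -0.45), Gm3608 (3.47 and -0.57) and Hist1h2al (-0.23 summed), among others, had the opposite sign to the gene alone. Totals of 8490396 to 11800932 counts and 2 libraries a side limit what could pass.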

Other observations

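Some genes differed widely between libraries of 1 group. In G0APOL1, replicate 2 also exceeded replicate 1 for Kcnq1ot1 (20.3 against 0 CPM), Leng8 (152 against 25.6 CPM), Ccnl2 (156 against 34.5 CPM) and Noct (102 against 15.3 CPM). In G2APOL1, Ugt1a8 had 0 CPM in replicate 1 and 16.1 CPM in replicate 2, with 0 CPM in both G0APOL1 libraries and 169 and 0 CPM in WT. These genes were picked after their values were seen.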
